A study of Arabidopsis thaliana with 12 samples.

Results

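The regulators of the flavonoid pathway described here are 10 genes of Arabidopsis thaliana, chosen by name from a table of 25729 genes: the MYB activators PAP1, PAP2, MYB11, MYB12 and MYB111, the bHLH proteins TT8, EGL3 and GL3, the WD40 protein TTG1 and the repressor MYBL2. Their transcripts were measured by RNA sequencing in whole seedlings of the ecotype Col-0 at 10 d of age, grown at 22 °C in LD conditions on MS medium with 3% sucrose. Wild type seedlings and seedlings of the genotype tic-2 -/-, a mutant of the clock gene TIME FOR COFFEE (TIC), were harvested at predawn (ZT 0, hours counted from lights-on) and at postdusk (ZT 12). Each of the 4 groups had 3 libraries. The title of the series concerns TIC, hypocotyl growth and PHYA signalling. The labels do not describe the lesion in tic-2 or an independent allele, so every genotype difference below is that of 1 mutant line. All groups shared the sucrose in the medium, and sugar is known to raise PAP1 transcript in Arabidopsis seedlings.

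Flavonoids are made from phenylalanine, by way of chalcone synthase, and branch into flavonols, anthocyanins and the proanthocyanidins of the seed coat. The late steps to anthocyanin are switched on by a complex of an R2R3 MYB protein such as PAP1 or PAP2, a bHLH protein (TT8, EGL3 or GL3) and TTG1. MYB11, MYB12 and MYB111 form the subgroup 7 of R2R3 MYB proteins, which turn on the early steps and flavonol synthesis without a bHLH partner. MYBL2 is a small MYB protein that binds the bHLH partner and represses DFR and TT8.

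The sequences below were read from the TAIR10.1 genome of RefSeq. Upstream stretches of 250 bases, each ending at the base before the annotated start of the gene, are shown for the repressor, whose genotype difference changed sign with the time of day, and for the 3 activators with the largest log2 differences over time in Col-0. Capitals mark the evening element (AAATATCT, or its reverse complement), a clock-related motif, and the G-box (CACGTG), a motif bound by bHLH and bZIP proteins.
MYBL2, chr1:26796533-26796782, minus strand: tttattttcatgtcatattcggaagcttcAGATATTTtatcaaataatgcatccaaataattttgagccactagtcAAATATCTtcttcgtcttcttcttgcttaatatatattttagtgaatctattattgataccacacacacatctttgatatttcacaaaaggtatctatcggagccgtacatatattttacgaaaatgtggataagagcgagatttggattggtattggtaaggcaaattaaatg
MYB111, chr5:20001573-20001822, minus strand: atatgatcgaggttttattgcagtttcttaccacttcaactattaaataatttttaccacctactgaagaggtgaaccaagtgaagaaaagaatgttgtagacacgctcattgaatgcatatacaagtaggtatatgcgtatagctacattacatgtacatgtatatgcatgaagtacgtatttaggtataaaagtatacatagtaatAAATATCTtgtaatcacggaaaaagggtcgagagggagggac
PAP1, chr1:21235293-21235542, minus strand: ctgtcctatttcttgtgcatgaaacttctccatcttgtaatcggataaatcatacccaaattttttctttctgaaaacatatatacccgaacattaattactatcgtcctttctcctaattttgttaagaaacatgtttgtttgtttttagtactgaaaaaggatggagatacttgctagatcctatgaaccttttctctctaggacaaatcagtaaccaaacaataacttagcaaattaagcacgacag
PAP2, chr1:24763691-24763940, plus strand: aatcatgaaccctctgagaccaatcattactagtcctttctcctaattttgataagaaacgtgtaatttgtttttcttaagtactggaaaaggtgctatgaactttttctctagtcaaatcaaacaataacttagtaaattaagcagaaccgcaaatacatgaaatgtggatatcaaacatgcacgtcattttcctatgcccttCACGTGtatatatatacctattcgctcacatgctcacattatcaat

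The evening element was found in 2 of the 10 upstream stretches, those of MYBL2, with matches starting at -221 and -174 from the gene start, and MYB111, with a match at -42. It was present in 4.79% of the 27437 stretches of that length in the genome, with both strands searched. The G-box was found upstream of PAP2 (-46) and of MYB12 (-118), and in 6.49% of all stretches. The CCA1-binding site (AAAAATCT) was in none of the 10 and in 6.69% of all stretches. The ACGT core was in 7 of 10 members against 44.1% of all stretches, and the E-box (CANNTG) in 7 of 10 against 55.3%, where every G-box is also counted under these shorter motifs. The stretch upstream of PAP1 held none of the 5 motifs. These matches describe letters within the window, and binding was not measured.

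**Figure D1:**
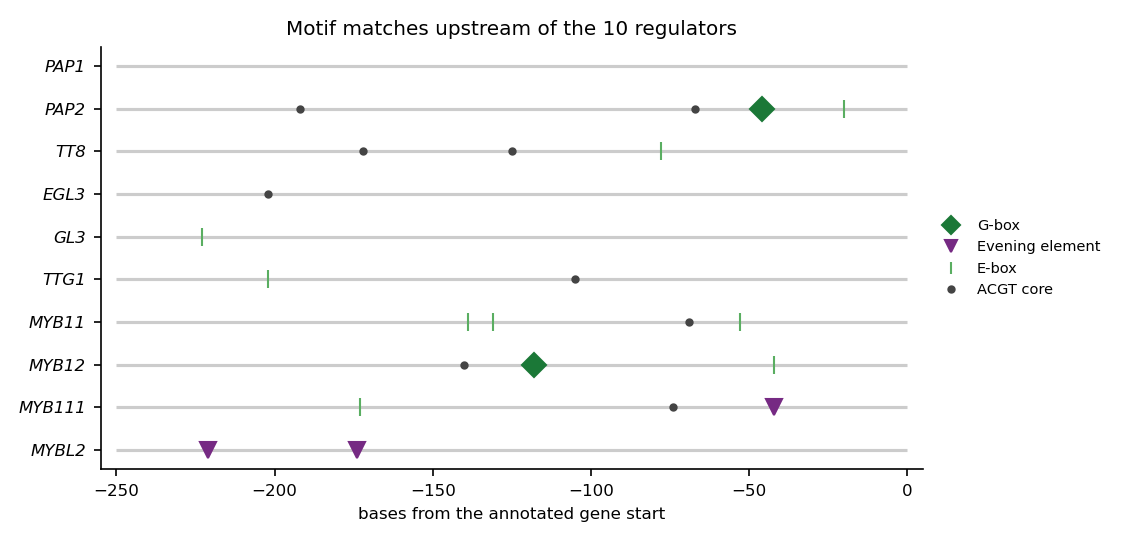
Positions of motif matches in the 250 bases upstream of the 10 regulators, in bases from the annotated gene start; each grey line is the stretch of 1 gene. Evening elements lie upstream of MYBL2 (-221 and -174) and MYB111 (-42), and G-boxes upstream of PAP2 (-46) and MYB12 (-118).

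The subgroup 7 genes and MYBL2 are also known or predicted targets of miR858, a small RNA that pairs with a conserved stretch of MYB coding sequence. The mature strands of the family are shown with the seed (bases 2 to 8) in capitals; the seeds of MIR858a and MIR858b differ by a shift of the mature end.
MIR858a, chr1:26773695-26773715, minus strand: uUUCGUUGucuguucgaccuu
MIR858b, chr1:26772907-26772927, plus strand: uUCGUUGUcuguucgaccuug

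The best paired stretch of each gene follows as DNA in the sense direction, with capitals at letters that do not form a Watson-Crick pair with the miRNA; the stretches of the subgroup 7 genes are set against MIR858a and that of MYBL2 against MIR858b.
MYB111, chr5:19999866-19999886, minus strand: CaggAAgaacagacaacgaaa
MYB12, chr2:19478416-19478436, plus strand: CaggGAgaacagacaacgaaa
MYB11, chr3:23155629-23155649, plus strand: CGggAAgaacagacaacgaaa
MYBL2, chr1:26795758-26795778, minus strand: cCaggAcgaacCgacaacgaa

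Pairing was scored with 1 point per mismatch and 0.5 per G:U pair, doubled at miRNA positions 2 to 13. The stretches in MYB111 and MYB12 scored 3, that in MYB11 scored 3.5 and that in MYBL2 scored 4, and all lie in coding sequence. A score of at most 4 was reached by 14 of 31346 genes (0.0447%) for MIR858a and by 23 (0.0734%) for MIR858b. The miRNAs themselves were not measured in these libraries, and cleavage of the sites was not tested.

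The depth behind the FPKM values (fragments per kilobase of exon, scaled to library size), back-calculated from their steps, was between 19255016 and 21750334 reads per library. The short names in the description field of 6 samples contradict the titles and characteristics of the same samples: those of tic-2 at predawn name Col-0 postdusk columns, and those of Col-0 at postdusk name tic-2 predawn columns. Columns were assigned to groups by the genotype and time in the column name, and the other reading would exchange these groups in every comparison below, MYBL2 and PAP1 included. The time was checked on clock genes: CCA1, a morning gene, had a mean of 259 FPKM at predawn and 0.748 FPKM at postdusk in Col-0, and 180 against 60.6 FPKM in tic-2. Under the exchange, the value of 0.748 FPKM would belong to tic-2 at predawn and that of 180 FPKM to Col-0 at postdusk. ELF4, an evening gene, went the other way, from 1.05 to 162 FPKM in Col-0 and from 4.90 to 91.9 FPKM in tic-2. TIC itself was listed at 54.9 and 60.8 FPKM in Col-0 and at 77.5 and 79.7 FPKM in tic-2, with no call at either time, and does not check the genotype because the lesion is not given. Summed seed markers (3 genes) were 44.1 to 74.5 FPKM in tic-2 against 18.1 to 32.9 FPKM in Col-0 at predawn, and 27.3 to 40.3 against 9.86 to 25.8 FPKM at postdusk; OLEO4 and SESA4 were called higher at both times. The seed coat genes BAN, TT2, TT12 and TT16 were near 0, with no group mean above 0.0654 FPKM. TT10 and AHA10, of the same list, were higher, with group means of up to 0.266 FPKM and 1.24 FPKM. Summed markers of the shoot epidermis (2 genes, ATML1 and CER5) were 69.9 to 79.5 FPKM in Col-0 and 55 to 75.7 FPKM in tic-2 at predawn. At postdusk they were 51.6 to 61.1 and 60.8 to 76.1 FPKM in that order. ATML1 was called higher in tic-2 at postdusk, and CER5 was called at neither time. Of the trichome and epidermis genes outside this sum, GL1 and TTG2 were called lower in tic-2 at postdusk (log2 difference -0.59 each). GL2 was called at neither time. Of the root epidermis markers 4 of 5 were tested, and of the root markers 2 of 3, since RSL4 and WOX5 were below the filter given below. None of those tested was called in either genotype comparison, beside 27.7% of all genes at predawn and 29.5% at postdusk. The part of seed or epidermal tissue in the results below was not tested.

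Differences were tested with limma on log2(FPKM + 1) across the 19274 genes that had at least 1 FPKM in at least 3 libraries, with Benjamini-Hochberg adjustment over those genes and a call at an adjusted p under 0.05. Of the 10 regulators, 8 passed this filter, and GL3 and MYB11 did not. MYB12 passed only through its postdusk libraries. Folds are ratios of mean FPKM, whereas log2 values are differences of log2(FPKM + 1), which understate the change of low genes. FPKM is scaled by gene length, so levels can be set side by side between genes.

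At predawn, the activator PAP1 was lower in tic-2 than in the wild type and the repressor MYBL2 was higher, while PAP2, the close relative of PAP1, was not called. The call of PAP1 was lost under some of the alternatives given below. At postdusk PAP1 was not called and MYBL2 was lower in tic-2. PAP2, TT8, EGL3, TTG1, MYB12 and MYB111 were not called between genotypes at either time in this test, and GL3 and MYB11 were not tested. EGL3 at postdusk and TT8 at predawn passed the threshold under some of the alternatives given below. Between predawn and postdusk, PAP1, PAP2, TT8, MYB12 and MYB111 rose in both genotypes, while MYBL2 fell in tic-2. At predawn 1 regulator was called higher and 1 lower of 8 tested, where 27.7% of all genes were called, 13.1% higher and 14.6% lower. At postdusk 1 of 8 was called, lower, against 29.5% of all genes, 9.71% higher and 19.8% lower. The libraries of the genotypes did not overlap for 2 of the 8 regulators at predawn (PAP1 and MYBL2), as for 44.7% of all genes, and for 2 at postdusk (EGL3 and MYBL2), as for 46.8% of all genes. The shares of members called or not overlapping between genotypes were near or below those of all genes. The members' median log2 difference was -0.155 at predawn, beside -0.0297 over all genes, and -0.107 at postdusk, beside -0.123 over all genes.

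**Figure D2:**
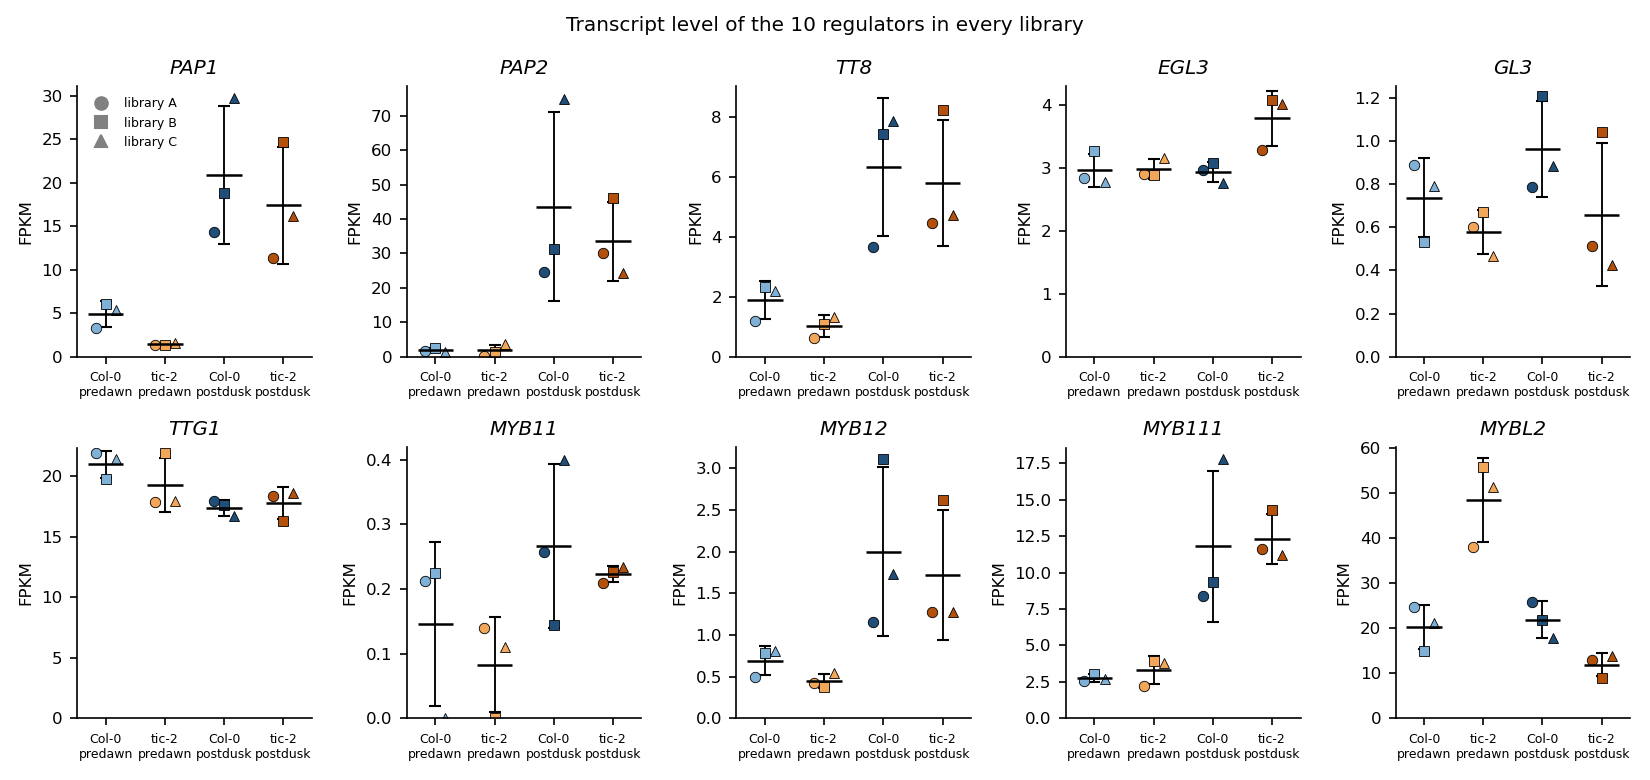
FPKM of each regulator in every library, by genotype and time; bars are group means with SD (n = 3), and the vertical axes differ between genes and start at 0. MYBL2 is highest in the 3 tic-2 libraries of predawn (38.0 to 55.8 FPKM) and lowest in those of postdusk (8.90 to 13.8 FPKM).

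MYBL2, the repressor (AT1G71030, chr1:26795052-26796532, minus strand), showed the largest genotype difference among the regulators at postdusk, and it pointed the other way at predawn. At predawn the Col-0 libraries A, B and C held 24.6, 14.9 and 21.1 FPKM and the tic-2 libraries 38.0, 55.8 and 51.3 FPKM. Every tic-2 library was above every Col-0 library. The mean was 20.2 ± 4.93 FPKM in Col-0 and 48.4 ± 9.25 FPKM in tic-2 (SD, n = 3 each), 2.39-fold higher in tic-2 (log2 difference 1.23, SE 0.21, limma adjusted p = 0.00119). In whole seedlings, a change in the number of cells of a type and a change in RNA per cell cannot be told apart, here or in any result below.

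At postdusk the order was reversed. The Col-0 libraries held 25.9, 21.8 and 17.8 FPKM of MYBL2 and the tic-2 libraries 12.9, 8.90 and 13.8 FPKM, again without overlap. The mean was 21.9 ± 4.06 FPKM in Col-0 and 11.9 ± 2.60 FPKM in tic-2, 1.84-fold lower in tic-2 (log2 difference -0.84, SE 0.21, limma adjusted p = 0.0137). This call was lost without Col-0 library A of postdusk, at a log2 difference of -0.71 and an adjusted p of 0.0558.

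The difference between the genotype effects at postdusk and predawn was -2.06 for MYBL2 (SE 0.30, 95% interval -2.73 to -1.40, limma adjusted p = 0.000593). It was the single call among 8 regulators in this interaction, in which 15.9% of all genes were called, 7.28% positive and 8.59% negative. Seen over time, MYBL2 was 4.08-fold lower at postdusk than at predawn in tic-2 (log2 difference -1.94, SE 0.21, adjusted p = 2.58e-05). In Col-0 the corresponding log2 difference was 0.12, with a 95% interval of -0.35 to 0.59 and an adjusted p of 0.696. The interval leaves room for a change of moderate size in the wild type in either direction.

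Most deposited values were lower in tic-2 at postdusk: the median log2 difference of all genes was -0.123, and 32.9% of the called genes were higher. After rescaling the libraries by median of ratios, the median was -0.0145 and 57.1% of calls were higher, and after quantile normalization 50.7% were. MYBL2 stayed lower at postdusk under both, at -0.72 (adjusted p = 0.0368) and -0.75 (adjusted p = 0.0285).

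PAP1 (AT1G56650, chr1:21233555-21235292, minus strand), the MYB activator best known for anthocyanin accumulation, was lower in tic-2 at predawn. The predawn libraries held 3.26, 6.03 and 5.42 FPKM in Col-0 and 1.38, 1.36 and 1.64 FPKM in tic-2, from 74, 130 and 118 reads against 32, 30 and 36 reads. No tic-2 library reached the lowest wild type library. The mean fell from 4.90 ± 1.46 FPKM to 1.46 ± 0.155 FPKM, 3.37-fold lower (log2 difference -1.23, SE 0.29, limma adjusted p = 0.00747). The call was lost with a pseudocount of 5, which shrinks differences of low genes (log2 difference -0.61, adjusted p = 0.064), and in a weighted fit of the recovered reads with limma's voom (log2 difference -1.69, adjusted p = 0.0531).

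By postdusk the PAP1 groups overlapped, with 14.3, 18.8 and 29.7 FPKM in Col-0 and 11.4, 24.7 and 16.2 FPKM in tic-2. The log2 difference between genotypes was -0.25, with a 95% interval of -0.88 to 0.38 (adjusted p = 0.534). With array weights, which give less weight to libraries that stand apart, PAP1 was called lower in tic-2 at postdusk (-0.71, adjusted p = 0.0309). The genotype effects of the different times were not shown to differ for PAP1, since the interaction of 0.98 had an adjusted p of 0.134. PAP1 rose from predawn to postdusk 4.26-fold in Col-0 (adjusted p = 0.000346) and 12-fold in tic-2 (adjusted p = 1.4e-05), both by limma.

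PAP2 (AT1G66390, chr1:24763941-24765541, plus strand), the close relative of PAP1, had the steepest rise with time of the 8 regulators tested. At predawn it was at 1.75, 2.52 and 1.47 FPKM in Col-0 and 0.381, 1.5 and 3.72 FPKM in tic-2. At postdusk the libraries held 24.5, 31.4 and 74.9 FPKM in Col-0 and 30.0, 46.2 and 24.2 FPKM in tic-2. Genotypes overlapped at both times, and times overlapped in neither genotype. The rise was 22.8-fold in Col-0 (log2 difference 3.78, SE 0.45, adjusted p = 4.56e-05) and 17.9-fold in tic-2 (log2 difference 3.71, SE 0.45, adjusted p = 5.33e-05). Genotype intervals were wide, at -1.17 to 0.80 for predawn and -1.24 to 0.73 for postdusk on the log2 scale. The folds over time rest in part on single libraries: without Col-0 postdusk C the rise was 14.6-fold, and without tic-2 predawn C it was 35.5-fold. Of the exon stretches of 31 bases in PAP2, 11.3% also occur elsewhere in the genome, against 1.37% in PAP1, and how shared reads were counted is not given in the sources used here.

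The ratio of PAP2 to PAP1 transcript did not overlap between times in Col-0 and overlapped in tic-2. The ratio of PAP2 to PAP1 FPKM was 0.272 to 0.538 in the predawn Col-0 libraries and 1.67 to 2.53 in the postdusk ones. In tic-2 it ranged from 0.277 to 2.28 at predawn, the widest range of the 4 groups, and from 1.49 to 2.64 at postdusk. The relatives MYB113 and MYB114, which act on the same steps, were at most at a group mean of 0.263 FPKM.

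**Figure D3:**
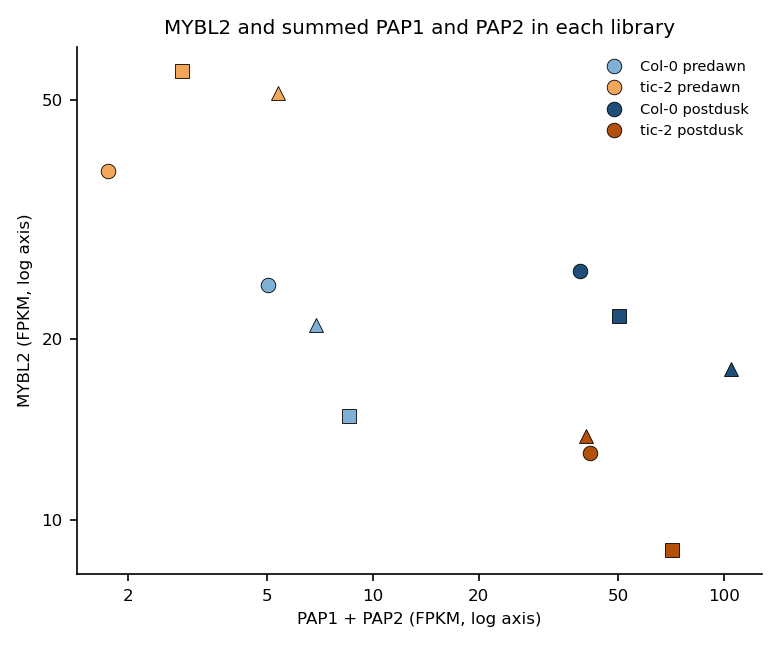
MYBL2 against the sum of PAP1 and PAP2 in each library, in FPKM on log axes; each point is 1 library. The predawn tic-2 libraries lie at the upper left, with a ratio of MYBL2 to the summed activators of 9.57 to 21.6. The postdusk libraries of both genotypes lie to the right, with ratios of 0.125 to 0.67. On the MYBL2 axis, those of tic-2 lie below all predawn libraries, and those of Col-0 overlap with the predawn Col-0 libraries.

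MYBL2 and the summed PAP1 and PAP2 were set against each other within each library. At predawn the sum itself overlapped, at 5.01 to 8.55 FPKM in Col-0 and 1.76 to 5.36 FPKM in tic-2, whereas MYBL2 alone did not. The predawn ratio of MYBL2 to this sum was 4.92, 1.74 and 3.06 in Col-0 and 21.6, 19.5 and 9.57 in tic-2, without overlap. At postdusk it was 0.67, 0.436 and 0.17 in Col-0 and 0.312, 0.125 and 0.341 in tic-2, with overlap. The activators thus exceeded the repressor in all 6 postdusk libraries and in none of the 6 predawn libraries, in FPKM.

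TT8 (AT4G09820, chr4:6181881-6186523, plus strand), the bHLH partner whose transcript is itself induced by the complex, followed PAP1 and PAP2 in time. Its predawn libraries held 1.19, 2.34 and 2.19 FPKM in Col-0 and 0.619, 1.10 and 1.33 FPKM in tic-2, and its postdusk libraries 3.68, 7.46 and 7.88 FPKM in Col-0 and 4.47, 8.24 and 4.75 FPKM in tic-2. The times did not overlap in either genotype, and the genotypes overlapped at both times. TT8 rose 3.33-fold in Col-0 (adjusted p = 0.00296) and 5.72-fold in tic-2 (adjusted p = 0.000443), by limma. Between genotypes at predawn the log2 difference was -0.52, with an interval of -1.12 to 0.09 and an adjusted p of 0.194.

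EGL3 (AT1G63650, chr1:23599413-23603164, plus strand), a bHLH partner shared with trichome and root hair patterning, stayed in a narrow band. Its group means lay between 2.93 and 3.78 FPKM. At postdusk the tic-2 libraries (3.28, 4.07 and 4.01 FPKM) were all above the Col-0 libraries (2.96, 3.08 and 2.76 FPKM). The log2 difference was 0.28 (SE 0.10), with an interval of 0.06 to 0.50, and missed the threshold with an adjusted p of 0.0579. It passed after rescaling by median of ratios (0.38, adjusted p = 0.0215) and after quantile normalization (0.36, adjusted p = 0.0298), so the postdusk count of called regulators was 2 under those scalings.

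The more abundant bHLH transcript was not the same at the different times. EGL3 exceeded TT8 in all 6 predawn libraries, by 1.27 to 2.38 times in Col-0 and 2.37 to 4.69 times in tic-2. At postdusk TT8 exceeded EGL3 in all 6 libraries, with EGL3 to TT8 ratios of 0.35 to 0.803 in Col-0 and 0.494 to 0.844 in tic-2. GL3 (AT5G41315, chr5:16529090-16533287, plus strand), the trichome bHLH, was below 1 FPKM in group mean throughout, from 0.579 ± 0.103 FPKM in tic-2 at predawn to 0.962 ± 0.224 FPKM in Col-0 at postdusk (SD, n = 3), on 25 to 66 reads per library. In a fit without the filter its lowest adjusted p in any comparison was 0.225. GL3 is overlapped by AT5G06145 on the opposite strand, and whether counting used strand is not given in the sources used here.

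TTG1 (AT5G24520, chr5:8370317-8372847, minus strand), the WD40 scaffold of the complex, lay between 16.3 and 21.9 FPKM in all 12 libraries. Its group means were 21.0 ± 1.10 and 19.3 ± 2.26 FPKM at predawn and 17.4 ± 0.681 and 17.8 ± 1.29 FPKM at postdusk, for Col-0 and tic-2 in that order. The genotype intervals were -0.33 to 0.08 at predawn and -0.18 to 0.23 at postdusk on the log2 scale. In Col-0 the postdusk libraries (18.0, 17.6 and 16.7 FPKM) all lay below the predawn libraries (21.9, 19.8 and 21.4 FPKM), at a log2 difference of -0.26 that missed the threshold (adjusted p = 0.0528, interval -0.46 to -0.05).

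MYB111 (AT5G49330, chr5:19998823-20001572, minus strand) was the most abundant of the flavonol activators and rose with time. It was at 2.57, 3.06 and 2.69 FPKM in Col-0 and 2.19, 3.91 and 3.80 FPKM in tic-2 at predawn, and at 8.36, 9.38 and 17.8 FPKM in Col-0 and 11.6, 14.3 and 11.2 FPKM in tic-2 at postdusk. Genotypes overlapped at both times. The rise was 4.27-fold in Col-0 (adjusted p = 0.000164) and 3.74-fold in tic-2 (adjusted p = 0.000203), by limma. MYB111 made up 74.2% to 91.1% of the summed FPKM of the subgroup in each library.

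MYB12 (AT2G47460, chr2:19476326-19479597, plus strand), known for flavonol control in the root, rose in both genotypes from a low level. It was at 0.494, 0.78 and 0.805 FPKM in Col-0 and 0.422, 0.381 and 0.541 FPKM in tic-2 at predawn, and at 1.15, 3.11 and 1.73 FPKM in Col-0 and 1.27, 2.62 and 1.28 FPKM in tic-2 at postdusk. The times did not overlap in either genotype. Its postdusk mean was 2.88-fold higher in Col-0 (log2 difference 0.78, adjusted p = 0.0216) and 3.85-fold higher in tic-2 (log2 difference 0.88, adjusted p = 0.0116). MYB12 entered this test only through its 6 postdusk libraries, since 0 predawn libraries reached 1 FPKM; in a fit of all genes without the filter the adjusted p was 0.0287 in Col-0 and 0.016 in tic-2. In Col-0 the call was lost without library A of predawn (0.69, adjusted p = 0.0795) or without library B of postdusk (0.52, adjusted p = 0.0827).

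MYB11 (AT3G62610, chr3:23154630-23156585, plus strand) was at the edge of detection, on 0 to 11 reads per library, with group means from 0.083 to 0.267 FPKM. Its tic-2 libraries held 0.139, 0 and 0.11 FPKM at predawn and 0.209, 0.227 and 0.234 FPKM at postdusk, and did not overlap. An exact permutation test of 3 against 3 libraries cannot go below p = 0.1, and without the filter the lowest adjusted p of MYB11 was 0.181. It is overlapped by AT3G62615 on the opposite strand.

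In the time comparisons 5 of 8 tested regulators were called higher and 0 lower in Col-0, where 37.1% of all genes were called and 22.7% were called higher. In tic-2, 5 were called higher and 1 lower, where 37.9% of all genes were called, 18.5% higher and 19.4% lower. The libraries of the different times did not overlap for 6 of the 8 in Col-0, TTG1 included, and for 7 in tic-2, EGL3 and MYBL2 included, against 57.6% and 44.3% of all genes. The members' median log2 differences were 1.04 in Col-0 and 1.27 in tic-2, beside 0.0496 and -0.0479 over all genes. In both genotypes the 5 were PAP1, PAP2, TT8, MYB12 and MYB111. These counts and medians are descriptions, since MYB12 passed the filter through the time at which it was high.

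**Figure D4:**
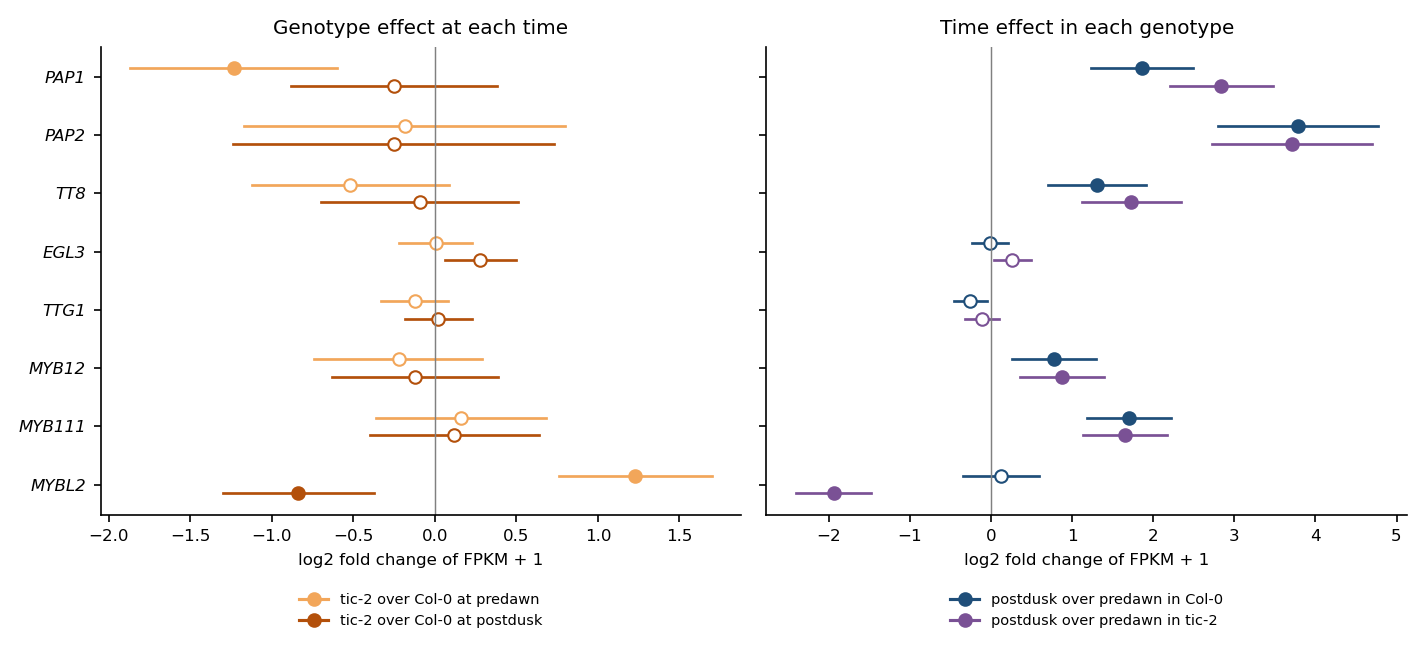
Log2 differences of FPKM + 1 with 95% intervals for the 8 regulators tested, between genotypes at each time and between times in each genotype; filled points were called at an adjusted p under 0.05. MYBL2 lies to the right at predawn (1.23) and to the left at postdusk (-0.84), and PAP2 has the largest time differences (3.78 and 3.71).

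Across the 12 libraries the Pearson correlations of log2(FPKM + 1) among PAP1, PAP2, TT8, MYB12 and MYB111 ran from 0.81, between MYB12 and MYB111, to 0.98, between PAP2 and MYB111. PAP1 was at 0.97 with TT8, 0.93 with PAP2, and 0.89 with both MYB12 and MYB111, and PAP2 was at 0.85 with MYB12. MYBL2 ran the other way, at -0.79 with PAP1, -0.74 with TT8 and -0.62 with PAP2. These correlations are descriptions over libraries that share the contrast of predawn and postdusk. Over time, MYBL2 was called lower in tic-2 (log2 difference -1.94) but was not called in Col-0 (0.12), while PAP1, PAP2 and TT8 were called higher in both genotypes.

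Among 18637 genes compared over the same 12 libraries, the profiles most like PAP1 were DFR (0.986), AT5MAT (0.983) and GSTF12, also called TT19 (0.983), all of the late anthocyanin steps. PAP2 was nearest to AT3G53940 (0.991), NUDT24 (0.988) and MYB111 (0.982), and MYB111 to PAP2 (0.982), NUDT24 (0.979) and AT1G68600 (0.977). TT8 was nearest to KAT5 (0.982), TT7, the flavonoid 3'-hydroxylase (0.978), and GSTF12 (0.974). MYB12 was nearest to AT5G62210 (0.958), SAPX (0.946) and TT8 (0.946). The nearest to MYBL2 were OFP15 (0.959), AT1G14910 (0.953) and SDP1 (0.943), none of them a gene of the lists below.

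Most of the late anthocyanin enzymes, whose genes are known targets of the complex, were called lower in tic-2 at predawn. Of 10 tested, 7 were called lower (SCPL10, DFR, LDOX, 5MAT, UGT79B1, TT19 and UGT75C1) and 1 higher (BGLU10), beside 14.6% lower and 13.1% higher over all genes. The median log2 difference was -1.51, beside -0.0297 over all genes, and the uncalled 3AT2 and 3AT1 were at 0.20 and -0.17. DFR, which commits flavonoids to anthocyanin, was at 12.7 ± 3.3 FPKM in Col-0 and 1.97 ± 0.538 FPKM in tic-2 (log2 difference -2.2, adjusted p = 0.00038). At postdusk 1 of 10, UGT79B1, was called lower, beside 19.8% of all genes, from 21.6 ± 8.61 to 9.31 ± 3.56 FPKM (-1.10, adjusted p = 0.0243). From predawn to postdusk 9 of the 10 were called higher in Col-0 and all 10 in tic-2, beside 22.7% and 18.5% of all genes.

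The called early and flavonol enzymes had the same direction at predawn: 5 of 9 tested were lower in tic-2 (UGT78D2, UGT78D1, CHIL, FLS1 and CHS) and 0 higher, beside 14.6% and 13.1% of all genes, with a median log2 difference of -0.862. At postdusk 0 of the 9 were called and the median was 0.19, beside -0.123 over all genes. CHS, the entry enzyme, was at 95.6 ± 7.99 FPKM in Col-0 and 39.5 ± 16.8 FPKM in tic-2 at predawn (-1.35, adjusted p = 0.0152), while UGT78D2, a flavonoid glucosyltransferase, was at 40 ± 2.69 and 10 ± 1.93 FPKM (-1.91, adjusted p = 7.54e-06). Of the subgroup 7 activators of these steps, MYB12 and MYB111 were not called at predawn, with intervals of -0.74 to 0.29 for MYB12 and -0.36 to 0.68 for MYB111. No predawn library of MYB12 reached 1 FPKM, and it was tested only through its postdusk libraries. Its predawn mean was 1.55-fold lower in tic-2, with overlapping libraries, and log2(FPKM + 1) understates such a change. The absence of a call does not show that these activators were unchanged. Of 8 phenylpropanoid enzymes upstream, 4CL3 and PAL2 were called lower at predawn, beside 14.6% of all genes. At postdusk 4CL2, PAL4 and C4H were called higher, beside 9.71% of all genes. The medians of these enzymes were -0.113 and 0.351, beside -0.0297 and -0.123 over all genes. Of 6 proanthocyanidin and seed coat genes with values, AHA10 alone passed the filter, and it was not called.

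**Figure D5:**
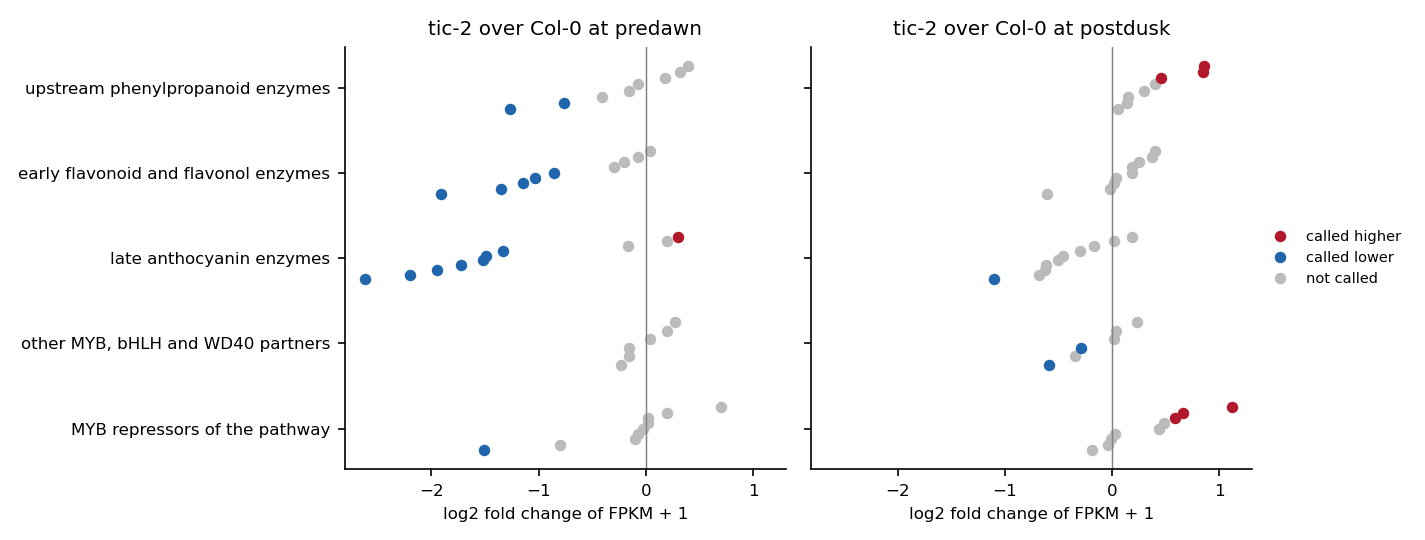
Log2 differences of FPKM + 1 between tic-2 and Col-0 for genes of 5 lists of enzymes and partners, at predawn and at postdusk; each point is 1 gene that passed the filter. At predawn 7 of 10 late anthocyanin enzymes are called lower in tic-2, and at postdusk 1 is.

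Of 6 other MYB, bHLH and WD40 partners tested, 0 were called at predawn and 2 at postdusk, where 29.5% of all genes were called; both were lower in tic-2: GL1, the trichome MYB, from 1.38 ± 0.287 to 0.589 ± 0.274 FPKM (-0.59, adjusted p = 0.0232), and LWD2, from 8.05 ± 0.415 to 6.4 ± 0.509 FPKM (-0.29, adjusted p = 0.0419). Of 2 epidermal targets of the complex tested, TTG2 was called lower in tic-2 at postdusk as well (-0.59, adjusted p = 0.0137). GL2 was not called (-0.08, adjusted p = 0.779). Over all genes 19.8% were called lower at postdusk, and the median log2 difference was -0.123.

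Among 9 MYB repressors other than MYBL2, TRY, a small MYB inhibitor of trichome fate, also changed direction with time, and opposite to MYBL2. It was at 3.88 ± 0.534 FPKM in Col-0 and 0.733 ± 0.386 FPKM in tic-2 at predawn (-1.51, adjusted p = 0.000113), and at 0.608 ± 0.274 and 2.50 ± 0.577 FPKM at postdusk (1.12, adjusted p = 0.00158). TRY was the 1 of the 9 called at predawn, where 27.7% of all genes were called. Its interaction of 2.63 was called (adjusted p = 3.28e-05). With TRY, 3 of the 9 were called at postdusk, beside 29.5% of all genes. MYB3 and ETC1 were called higher in tic-2 at postdusk, at log2 differences of 0.59 (adjusted p = 0.00702) and 0.66 (adjusted p = 0.00861). The median of the list was -0.0277 at predawn and 0.435 at postdusk, beside -0.0297 and -0.123 over all genes. The remaining 6 repressors of the list were called at neither time.

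Regulators upstream of the members divided at predawn. Of 13 light, nitrogen and age regulators, HYH, HY5 and LBD39 were called lower in tic-2 and PIF4, BBX21 and BBX22 higher, beside 14.6% lower and 13.1% higher over all genes. HY5, a bZIP activator of PAP1 and MYB12, was at 21.2 ± 1.58 FPKM in Col-0 and 10.5 ± 1.56 FPKM in tic-2 (-0.96, adjusted p = 0.0002), and its relative HYH was at 96.5 ± 5.54 and 22.4 ± 5.89 FPKM (-2.09, adjusted p = 7.95e-06). LBD39, which represses PAP1 and PAP2 under ample nitrogen, was at 73.9 ± 7.07 and 52 ± 4.67 FPKM (-0.50, adjusted p = 0.0416). At postdusk BBX24, HYH and BBX21 were called higher, beside 9.71% of all genes, and 0 of the 13 lower. The medians of the 13 were 0.00443 at predawn and 0.264 at postdusk, beside -0.0297 and -0.123 over all genes. Of 3 F-box genes tested, KFB1 and KFB20, whose proteins mark phenylalanine ammonia-lyase for degradation, were called higher at predawn (1.55, adjusted p = 0.000144, and 1.45, adjusted p = 0.00797). Over all genes 13.1% were called higher. The remaining gene, KFBCHS, was not called at predawn (0.36, adjusted p = 0.447). At postdusk 0 of the 3 were called, beside 29.5% of all genes.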

How the data were processed

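Transcripts of whole seedlings were measured in 12 libraries, 3 in each of 4 groups. Per the labels' protocols, total RNA was extracted with Trizol, treated with DNase I and made into libraries with a directional kit. The authors deposited 1 table of FPKM values for 25729 genes. TopHat, TopHat2, edgeR and the TAIR10 build are named per the submitters' processing notes, without roles; no source used here gives the counter, the filters or the use of strand. Columns were grouped by the genotype and time in their names, and the letters A, B and C only name libraries. The design text of the series speaks of biological replicates, without saying whether seedlings were pooled or grown in separate batches.

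From the deposited FPKM, depth was recovered: with exon lengths of TAIR10.1 (25453 genes matched), 99.5% to 99.55% of values per library were whole reads within 0.05 reads. Values were tested as log2(FPKM + 1) with limma 3.58.1 in R 4.3.3, in 1 fit of 4 group means (8 residual degrees of freedom, mean-variance trend), after a filter that removed 6455 genes. Benjamini-Hochberg adjustment covered the 19274 genes left. The script was checked on simulated data. Alternatives covered the pseudocount, the filter, the scaling, array weights, the libraries in the fit, a block on the column letter, voom on the recovered reads and each library left out in turn. The 10 members are always named. Other genes were named by a rule: up to 4 called genes per list and genotype comparison by smallest adjusted p, every gene of a count of 5 or fewer, and the 3 genes most correlated with each called member. Members, lists and rules were chosen with earlier results of these data known. F3H, UGT89C1, UGT73C6, TT1, MYB5 and KFB39 were not analysed here.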

Additional observations from a re-analysis of the deposited data

Results flagged for a closer look

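MYBL2 was singled out because its genotype effects at the different times differed in a test of the difference itself: the effect at postdusk minus that at predawn was -2.06 on the log2(FPKM + 1) scale (SE 0.30, limma adjusted p = 0.000593). All 3 tic-2 libraries lay above all 3 Col-0 libraries at predawn, and all 3 lay below at postdusk.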

How the results depend on the processing

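Each of the 40 differences of a regulator was recomputed under 23 alternatives; of these 920 values, 854 kept their direction and their side of the threshold, 5 called differences lost the call, 18 uncalled ones gained it, 0 called ones reversed, and 43 changed sign with no call in either fit. The predawn count of called regulators went from 2 to 1 with a pseudocount of 5 and with voom. The postdusk count went from 1 to 2 with median of ratios, quantile normalization, array weights (PAP1 added) and voom (EGL3 added), and ranged from 0 to 2 with a library left out, being 0 without Col-0 library A and 2 without tic-2 library A. Over the left-out libraries the count was 2 in every case at predawn, 1 for the interaction, 4 to 6 for time in Col-0 and 6 to 7 for time in tic-2. The adjusted p of PAP1 at predawn ranged from 0.000861 to 0.064 over its alternatives, that of MYBL2 at predawn from 2.78e-05 to 0.00758, at postdusk from 0.00395 to 0.0558 and for the interaction from 2.56e-05 to 0.00241. EGL3 at postdusk ranged from 0.0215 to 0.157. TTG1 over time in Col-0 passed in 9 alternatives, with a lowest adjusted p of 0.0164. With array weights, 9532 genes were called at predawn, 10443 at postdusk, 7954 for the interaction and 12164 over time in tic-2, against 5334, 5686, 3060 and 7304 without; the cause was not tested. Rescaling by median of ratios moved the share of higher calls from 45.9% to 60.4% for the interaction, and quantile normalization moved that over time in Col-0 from 61.1% to 50.1%.

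Across all genes tested, the column letters did not pair the libraries. Correlations of deviations between libraries of the same letter lay between -0.327 and 0.206 over 18 pairs, with 1 above 0.1. Of 12 libraries, 3 correlated best with their own letter. Single regulators can differ from this, and TT8 was lowest in library A of every group. With the letter as a replicate block, 3 regulators were called at predawn in place of 2, TT8 being added (-0.52, adjusted p = 0.049), 1 at postdusk, 1 for the interaction, 5 over time in Col-0 and 6 in tic-2. Depth limits the low values: MYB11 had 0 to 11, GL3 25 to 66 and MYB12 12 to 99 reads per library, and PAP2 had 8 to 74 in its predawn libraries.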

Other observations

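TAS4, a precursor of small RNAs that target PAP1, PAP2 and their relatives, was looked up after values of the data had been seen. Its libraries A, B and C held 0.761, 0.668 and 2.43 FPKM in Col-0 and 0.703, 0.478 and 1.26 FPKM in tic-2 at predawn, and 2.36, 7.10 and 8.33 FPKM in Col-0 and 7.39, 11.6 and 4.5 FPKM in tic-2 at postdusk. Genotypes overlapped at both times. TAS4 passed the filter only through its postdusk libraries, since 2 of 6 predawn libraries reached 1 FPKM. In a limma fit of all genes without the filter, its log2 difference over time was 1.55 in Col-0 (adjusted p = 0.0199) and 2.22 in tic-2 (adjusted p = 0.00274). With the filter, its genotype differences were -0.27 at predawn (adjusted p = 0.662) and 0.40 at postdusk (adjusted p = 0.49).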
